A study of Mus musculus with 12 samples.

Results

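Embryoid bodies after 1 day of culture were compared with the undifferentiated mouse embryonic stem cells of the same study. The comparison took every array that the sample labels assign to either group, which was 2 arrays a side and 4 of the 12 arrays in the series. The study followed gene expression related to epiblast development with 1-colour whole mouse genome arrays, hybridised with Cy3-labelled total RNA from undifferentiated cells, embryoid bodies at days 1, 3 and 4, and monolayer cultures at days 1 and 3. Both groups were labelled as embryonic stem cells of strain 129, with no transgene, mutation or added compound named. The sample titles of the undifferentiated group name LIF (leukaemia inhibitory factor), and its source labels give the undifferentiated state. The other group was labelled as embryoid bodies of day 1, and whether LIF was withdrawn or what medium and aggregate size were used is not given in the sources used here. The 2 arrays of each group were labelled clone 1 and clone 2. According to the design text, each time was covered by 2 separate experiments with a different person doing each, and no label says whether the embryoid bodies were made from the same cultures as the undifferentiated samples. The p-values below therefore measure only the spread between arrays of the same group, pooled over the 6 groups and 12 arrays of the series.

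LIF binds the heterodimer of Lifr and the shared receptor gp130, Janus kinases phosphorylate STAT3, and STAT3 with the naive transcription factors Klf4, Nanog, Esrrb, Tbx3 and Tfcp2l1 keeps mouse embryonic stem cells in a state that resembles the epiblast before implantation. Once these signals end, cells pass through a formative phase that resembles the epiblast just after implantation, marked by Fgf5, Otx2, Pou3f1 and the de novo DNA methyltransferases, and only then become competent for the primitive streak, endoderm or neural fates. Embryoid bodies are aggregates grown in suspension, so cells in them lose attachment to the dish and gain contact with each other, which also alters signals from the cytoskeleton and the supply of oxygen and nutrients.

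The 2 groups lay on different slides, were scanned on different days and were read with different versions of the extraction software, per the file headers, so batch and group cannot be told apart for any result below. All levels are log2 signals relative to the 75th percentile of the array, which lay between 482 and 588 intensity units on the 4 arrays, and 56.3% to 63.8% of spots were well above background. Across genes the 2 undifferentiated arrays correlated at 0.978 and the 2 embryoid body arrays at 0.992. A difference of 2-fold or more separated the 2 undifferentiated arrays for 11.9% of genes and the 2 embryoid body arrays for 3.39%. The share of all genes brighter in clone 1 than in clone 2 was not counted for either group. Counts of brighter members within lists below therefore stand without it. E1A spike-in probes, which are added control RNA, had a higher group mean in embryoid bodies for 10 of 10 probes (mean log2 difference 1.44), with both embryoid body arrays above both undifferentiated arrays for 9 of them, and the part of this in the results was not tested. With bulk RNA, fewer cells of a type and less RNA per cell cannot be told apart.

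Of 17729 genes tested, 2369 were called at an adjusted p under 0.05 (13.4%), 1414 higher in embryoid bodies (7.98%) and 955 lower (5.39%). Limma's fit across all 12 arrays with Benjamini-Hochberg adjustment over all genes gave these calls, and changes below are embryoid body minus undifferentiated ± SE. A change of at least 2-fold was seen for 953 of the higher and 809 of the lower genes. The median change of all genes was 0.09. For 64.8% of all genes both arrays of 1 group lay above both arrays of the other. Groups that do not overlap, as given for single genes below, are thus the common case. Among the genes called higher, 111 were not well above background on either undifferentiated array, and among those called lower, 239 were not well above background on either embryoid body array. Only 129 of the 2369 calls held in all 4 fits that left out 1 array, and the genes named below whose calls held are given beside each group. With normexp background correction 2466 genes were called, 1821 of them among the 2369, and 1084 changed at least 2-fold against 1762.

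**Figure D1:**
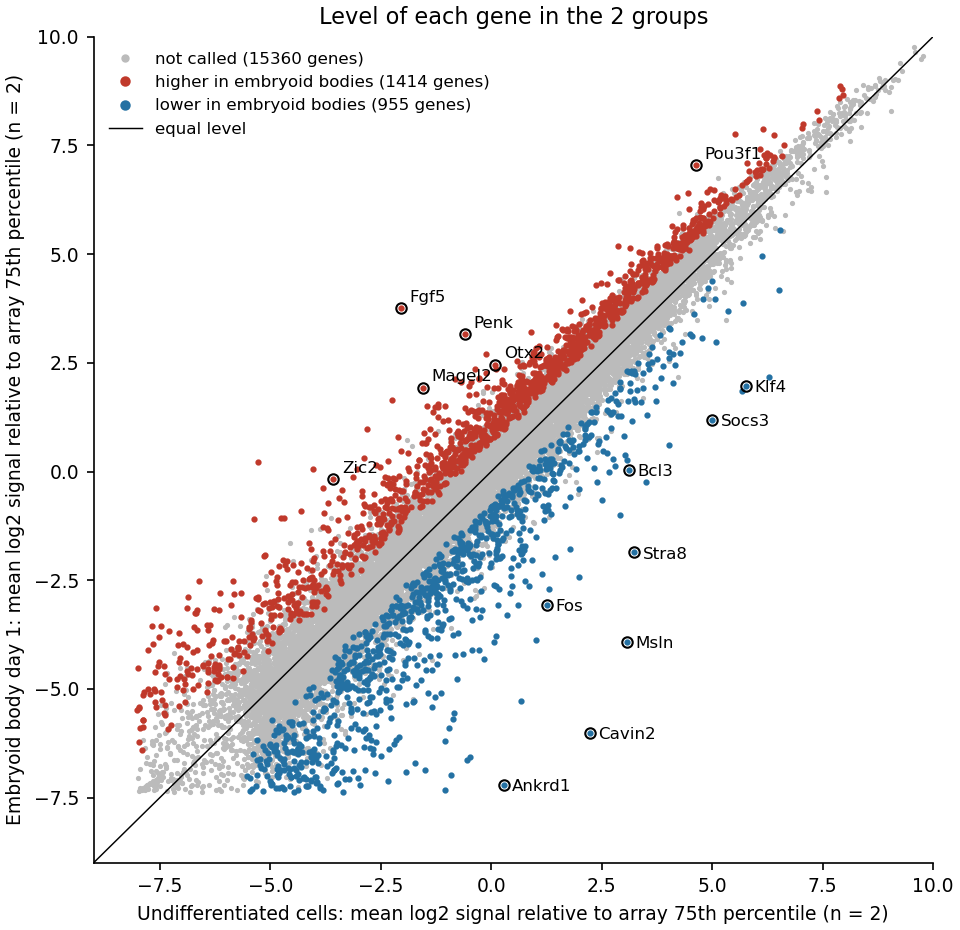
Each point is 1 of the 17729 genes, with its mean log2 signal relative to the array's 75th percentile in undifferentiated cells on the horizontal axis and in embryoid body day 1 on the vertical axis (2 arrays each). Red points were called higher (1414) and blue points lower (955), the line marks equal levels, and circled genes are described in the text; Fgf5 lies farthest above the line among the circled genes and Cavin2 farthest below it.

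The 4 marker genes given for the comparison moved apart by more than the spread between arrays, and their values matched the group labels. Fgf5, a fibroblast growth factor gene active in the epiblast after implantation (probe at chr5:98705980-98706039, mm9), measured -1.08 and -2.99 in undifferentiated clones 1 and 2 and 4.06 and 3.46 in embryoid body clones 1 and 2. Both embryoid body arrays lay far above both undifferentiated arrays, which themselves differed for this gene. Its log2 change was 5.80 ± 0.58, adjusted p = 0.00181, and it ran from 4.84 to 6.75 with 1 array left out. Otx2, a homeobox factor that acts early in exit from the naive state (probe at chr14:49278096-49278155), measured 0.11 and 0.09 in undifferentiated clones 1 and 2 and 2.34 and 2.58 in embryoid body clones 1 and 2. The 2 arrays of each group lay close together and the groups did not overlap (log2 change 2.36 ± 0.28, adjusted p = 0.00343, 5.14-fold higher). Klf4, a naive transcription factor and STAT3 target (probe at chr4:55540833-55540892), measured 5.65 and 5.88 in undifferentiated clones 1 and 2 and 2.16 and 1.78 in embryoid body clones 1 and 2. It fell 13.9-fold with no overlap of the groups (log2 change -3.79 ± 0.45, adjusted p = 0.00346). Socs3, the feedback inhibitor that STAT3 induces (probe at chr11:117827480-117827539), measured 4.64 and 5.36 in undifferentiated clones 1 and 2 and 1.30 and 1.07 in embryoid body clones 1 and 2. It was low on both embryoid body arrays and fell by 3.81 ± 0.27 (adjusted p = 0.00106, 14.1-fold). All 4 calls held with any 1 array left out, with adjusted p up to 0.0346 for Klf4.

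Many genes of the LIF and STAT3 pathway fell in embryoid bodies. Of 22 measured members, 9 fell, 1 rose and 12 were not called (45.5% called against 13.4% of all genes). The median change was -0.96 against 0.09 for all genes. At the level of receptors, Osmr, the oncostatin M receptor, fell and was not well above background on either embryoid body array, which gives at least 6.66-fold lower (3.04-fold and 14.6-fold with a single undifferentiated array, adjusted p = 0.0268). Lifr itself was not called (-0.51 ± 0.43, adjusted p = 0.444). Stat3, the transcription factor itself, measured 2.80 and 2.80 in undifferentiated clones 1 and 2 and 1.97 and 1.66 in embryoid body clones 1 and 2. The 2 undifferentiated arrays were alike and the groups did not overlap (log2 change -0.99 ± 0.21, adjusted p = 0.0212). Among targets and feedback genes, Bcl3, an IkB family co-regulator, measured 3.29 and 2.97 in undifferentiated clones 1 and 2 and 0.04 and 0.05 in embryoid body clones 1 and 2 and fell 8.49-fold (log2 change -3.09 ± 0.26, adjusted p = 0.00107). Pim1, a serine/threonine kinase, measured 1.15 and 1.25 in undifferentiated clones 1 and 2 and -1.37 and -0.84 in embryoid body clones 1 and 2 and fell 4.95-fold (log2 change -2.31 ± 0.31, adjusted p = 0.00514). Both groups of arrays were again clearly apart for Bcl3 and Pim1. Icam1, an adhesion molecule, fell by 2.23 and Fosl2, an AP-1 subunit, was at least 4.57-fold lower with no embryoid body array well above background. Other targets did not pass: Junb (-0.93 ± 0.42, adjusted p = 0.165), Cebpd (0.83 ± 0.31, adjusted p = 0.103) and Myc (1.71 ± 0.69, adjusted p = 0.124) were not called, and Myc differed between the undifferentiated arrays (2.07 and -0.70). The other 3 calls lie outside the rule for named genes and were chosen after their values were seen: the kinase gene Jak1 (-1.06 ± 0.21) and Pim3 (-2.11 ± 0.25) fell, and the feedback gene Socs2 (1.04 ± 0.29) rose. The calls of Socs3, Bcl3, Pim1 and Pim3 held with any array left out, and those of Jak1 and Socs2 ended without undifferentiated clone 2 or either embryoid body array (0.117 and 0.214). Those of Icam1 ended without either embryoid body array (adjusted p up to 0.0734), those of Osmr and Fosl2 without undifferentiated clone 1 or either embryoid body array (0.146 and 0.123), and that of Stat3 without undifferentiated clone 2 or either embryoid body array (0.128). A single undifferentiated array gave 3.02-fold and 6.93-fold for Fosl2, whose call also ended with normexp background (-0.91, adjusted p = 0.0837).

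The promoters of 2 of the 9 lower LIF and STAT3 genes hold the letters TTCNNNGAA, the core of a STAT-binding element, on either strand. Over all 32851 RefSeq promoters of the same length, 8.3% hold it. A gene was counted if any of its promoters held the letters, whereas the 8.3% is a share of single promoters. The windows run from 250 bases before to 50 after the annotated start, are credited to RefSeq (GRCm38.p6) and are printed 5′ to 3′ on the gene's strand, with the matching letters in capitals. Socs3 (chr11:117969317-117969616, minus strand) has the match 154 bases before the start and Icam1 (chr9:21015690-21015989, plus strand) 42 bases before it. They are shown because both genes carry the match and fell.
Socs3: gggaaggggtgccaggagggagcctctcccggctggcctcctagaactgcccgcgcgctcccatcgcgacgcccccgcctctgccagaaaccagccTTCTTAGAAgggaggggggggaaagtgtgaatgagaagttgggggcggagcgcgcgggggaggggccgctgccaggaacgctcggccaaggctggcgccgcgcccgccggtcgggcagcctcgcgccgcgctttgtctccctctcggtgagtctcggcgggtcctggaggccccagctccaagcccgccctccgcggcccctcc
Icam1: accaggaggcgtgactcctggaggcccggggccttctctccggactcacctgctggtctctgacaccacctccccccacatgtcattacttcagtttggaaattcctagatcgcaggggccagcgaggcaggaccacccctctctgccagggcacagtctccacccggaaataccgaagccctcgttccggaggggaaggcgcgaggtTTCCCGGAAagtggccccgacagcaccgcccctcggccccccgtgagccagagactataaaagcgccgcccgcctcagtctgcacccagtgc

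Naive pluripotency factors split between a few clear decreases and many genes that did not pass the test. Of 22 measured, 5 fell and none of the others was called (22.7% called against 13.4% of all genes). The median was -0.71, and 19 of the 22 had a change below 0. Besides Klf4 the genes called lower were Nanog, the homeobox factor of the naive network, Tet2, a 5-methylcytosine dioxygenase, Jam2, a junctional adhesion molecule, and Fbxo15, an F-box protein of stem cells. Nanog measured 3.14 and 3.33 in undifferentiated clones 1 and 2 and 1.95 and 1.37 in embryoid body clones 1 and 2. Its groups did not overlap, and it fell 2.97-fold (log2 change -1.57 ± 0.37, adjusted p = 0.0272). Jam2 measured 3.25 and 3.27 in undifferentiated clones 1 and 2 and 1.60 and 1.58 in embryoid body clones 1 and 2 and fell 3.19-fold (log2 change -1.67 ± 0.34, adjusted p = 0.0174), with both arrays of each group nearly equal. Tet2 fell by 2.19 and was well above background on 1 of the 2 embryoid body arrays, and Fbxo15 fell by 1.42. Values that did not pass were Esrrb -0.85 ± 0.60 (adjusted p = 0.36), Tfcp2l1 -0.88 ± 0.48 (0.234), Zfp42 -0.56 ± 0.41 (0.374), Klf5 -0.35 ± 0.44 (0.612) and Tbx3 -2.16 ± 0.87 (0.125). Klf2, a naive factor driven by MEK5 and ERK5 signalling, measured 7.31 and 7.39 in undifferentiated cells and 7.76 and 7.46 in embryoid bodies, and its 2 probes changed by -0.84 and 0.26. The 4 probes of Tfcp2l1 changed between -2.50 and -0.65. The call of Klf4 held with any array left out. Those of Nanog, Tet2 and Fbxo15 ended without any 1 of the 4 (adjusted p up to 0.154, 0.181 and 0.194), and that of Jam2 ended without undifferentiated clone 2 or either embryoid body array (0.102).

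Core pluripotency factors, which the epiblast keeps through implantation, were called at about the share of all genes. Of 14 measured, 1 rose and 1 fell (14.3% called against 13.4% of all genes), and the median was 0.28. Pou5f1, which encodes Oct4, measured 4.60 and 4.73 in undifferentiated clones 1 and 2 and 3.72 and 3.24 in embryoid body clones 1 and 2. The groups did not overlap, and the change missed the threshold narrowly (log2 change -1.18 ± 0.34, adjusted p = 0.0511). Pou5f1 was called lower with normexp background (-1.18, adjusted p = 0.0269), quantile normalization (-1.48, 0.023) and the authors' values (-1.49, 0.0229). Sox2 measured 3.69 and 3.87 in undifferentiated cells and 3.31 and 3.65 in embryoid bodies (-0.30 ± 0.35, adjusted p = 0.584) and Sall4 changed by 0.17 ± 0.21 (adjusted p = 0.623). Tdgf1, the Nodal co-receptor Cripto, fell by 1.72 (adjusted p = 0.0296). Rif1, a replication timing factor, rose by 0.95 ± 0.27, adjusted p = 0.0482, whereas its 2 probes changed by -0.35 and 0.95. Neither call held with each array left out in turn: Tdgf1 was lost without any 1 of the 4 and Rif1 without undifferentiated clone 2 or either embryoid body array.

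Many formative epiblast genes rose. Of 25 measured, 12 rose, none was called lower and 13 were not called (48% called against 13.4% of all genes). The median was 1.29, and 23 had a change above 0. Zic2, a zinc finger factor of the primed enhancer network (probe at chr14:122878810-122878869), measured -3.21 and -3.93 in undifferentiated clones 1 and 2 and -0.20 and -0.16 in embryoid body clones 1 and 2. The groups lay far apart and the embryoid body arrays were nearly equal (log2 change 3.39 ± 0.29, adjusted p = 0.00109). Pou3f1, also named Oct6, measured 5.17 and 4.11 in undifferentiated clones 1 and 2 and 6.76 and 7.32 in embryoid body clones 1 and 2 and rose by 2.40 ± 0.48 (adjusted p = 0.0171). Dnmt3b, a de novo DNA methyltransferase, measured 4.58 and 3.81 in undifferentiated clones 1 and 2 and 6.34 and 6.28 in embryoid body clones 1 and 2. It rose 4.32-fold with no overlap of the groups (log2 change 2.11 ± 0.55, adjusted p = 0.037). Sall2, a spalt-like zinc finger factor, rose by 2.44 ± 0.41 (adjusted p = 0.0102) and Pim2, a kinase related to Pim1, by 2.32 ± 0.38 (0.00967), the latter on all 3 of its probes (between 1.98 and 2.39). Dnmt3a, the other catalytic de novo enzyme, measured 3.72 and 2.52 in undifferentiated cells and 3.08 and 3.40 in embryoid bodies and did not pass (0.12 ± 0.56, adjusted p = 0.901). Nodal (0.97 ± 0.33, adjusted p = 0.0833), the TGF-beta family ligand of the epiblast, and Lef1 (1.68 ± 0.71, adjusted p = 0.136), a Wnt effector, did not pass either, and Lef1 was 0.17 on one undifferentiated array and -2.03 on the other. The undifferentiated arrays differed within this list: 22 of 25 members were brighter in clone 1 than in clone 2, by a median of 0.72. Calls held with any array left out for Fgf5, Otx2, Zic2 and Car4, a carbonic anhydrase gene named here after its values were seen (log2 change 1.78 ± 0.20, adjusted p = 0.00286). They ended without embryoid body clone 1 for Pim2 (0.0778), without either embryoid body array for Sall2 (0.067), and also without undifferentiated clone 2 for Pou3f1 (0.104) and Dnmt3b (0.184).

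**Figure D2:**
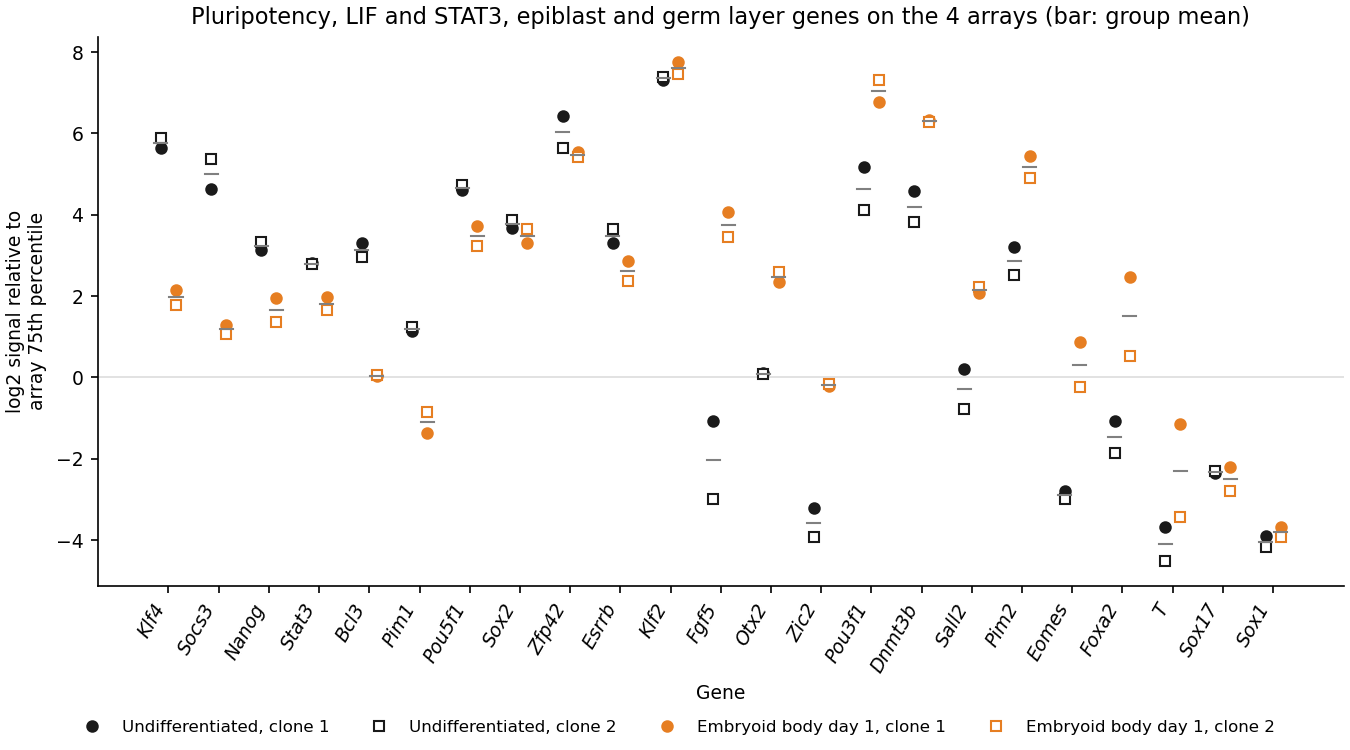
Log2 signal relative to the array's 75th percentile for 23 genes on the 4 arrays, undifferentiated in black and embryoid body day 1 in orange, circles for clone 1, squares for clone 2 and bars for group means. Klf4, Socs3 and Bcl3 are low and Fgf5, Otx2 and Zic2 high on both embryoid body arrays, whereas Sox2, Klf2, Sox17 and Sox1 sit at about the same level in both groups.

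Several primitive streak genes were higher on both embryoid body arrays, with embryoid body clone 1 the brighter for most. Of 18 measured, 7 rose and 1 fell (44.4% called against 13.4% of all genes), with a median of 1.20. With the 2 groups fitted alone, 2 were called higher and 1 lower. Embryoid body clone 1 was the brighter for 13 of the 18, by a median of 0.85. Eomes, a T-box factor of streak and endoderm, measured -2.78 and -2.99 in undifferentiated clones 1 and 2 and 0.86 and -0.24 in embryoid body clones 1 and 2. It rose by 3.20 ± 0.59 (adjusted p = 0.0135) with no overlap. Foxa2, a forkhead factor of the anterior streak, measured -1.06 and -1.87 in undifferentiated clones 1 and 2 and 2.47 and 0.54 in embryoid body clones 1 and 2 (log2 change 2.97 ± 0.68, adjusted p = 0.025), and Gsc, the homeobox gene of the organizer, measured -4.15 and -3.26 in undifferentiated clones 1 and 2 and 0.23 and -1.70 in embryoid body clones 1 and 2 (log2 change 2.97 ± 0.59, adjusted p = 0.0171). The 2 embryoid body arrays differed by nearly 2 log2 units for Foxa2 and Gsc, and with 1 array left out their changes ran 2.00 to 3.94 and 2.00 to 3.93. Fgf8, the streak growth factor, rose by 2.27 ± 0.46 (adjusted p = 0.0174, 1.47 to 3.07 with 1 array left out). T (Brachyury), the classical streak marker, measured -3.67 and -4.51 in undifferentiated clones 1 and 2 and -1.16 and -3.42 in embryoid body clones 1 and 2 and did not pass (log2 change 1.80 ± 0.63, adjusted p = 0.0873). Lhx1 and Dll3, chosen after their values were seen, rose by 1.98 ± 0.56 (1.17 to 2.79 with 1 array left out) and 1.84 ± 0.52, and each call ended without any 1 array. Mixl1 passed but was not well above background on any of the 4 arrays, so no change is given. Pdgfra, a receptor of paraxial mesoderm and primitive endoderm, fell to below background in embryoid bodies and was at least 6.62-fold lower (3.32-fold and 13.2-fold with a single undifferentiated array). No call named here held with every array left out: Eomes, Foxa2 and Mixl1 ended without embryoid body clone 1 or undifferentiated clone 2, Gsc without embryoid body clone 1 or undifferentiated clone 1, Fgf8 without either undifferentiated array or embryoid body clone 1, and Pdgfra without either embryoid body array (adjusted p up to 0.0997, 0.152, 0.114, 0.0922, 0.084 and 0.0874). With normexp background the calls of Pdgfra (-1.36, adjusted p = 0.0953) and Mixl1 (adjusted p = 0.723) ended too.

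Wnt and Nodal pathway genes moved in both directions. For Wnt, 6 of 32 measured members rose and 1 fell (21.9% called against 13.4% of all genes, median 0.18). The ligand gene Wnt3, which acts in streak formation, measured -2.67 and -2.56 in undifferentiated clones 1 and 2 and 0.76 and -0.45 in embryoid body clones 1 and 2 (log2 change 2.77 ± 0.44, adjusted p = 0.00889, 2.17 to 3.38 with 1 array left out), with both embryoid body arrays above both undifferentiated arrays. The receptor gene Fzd7 rose by 1.33 ± 0.27, Fzd2, chosen after its value was seen, by 0.76 ± 0.21 and the co-receptor gene Lrp5 by 0.87 ± 0.21. The feedback target Axin2 measured -2.45 and -2.14 in undifferentiated clones 1 and 2 and 0.05 and -0.58 in embryoid body clones 1 and 2 and rose 4.1-fold (log2 change 2.03 ± 0.31, adjusted p = 0.00743). Lgr5, an R-spondin receptor and Wnt target, was not well above background on either undifferentiated array and was at least 3.68-fold higher in embryoid bodies (adjusted p = 0.00394). Cdx1, a caudal homeobox target, fell to below background (at least 1.26-fold lower). Tcf7l1, the Wnt repressor of pluripotency, narrowly missed the threshold (1.13 ± 0.33, adjusted p = 0.0502), and Ctnnb1, which encodes beta-catenin, was not called (0.45 ± 0.18, adjusted p = 0.118). Lgr5 held with any array left out. Wnt3 and Axin2 ended without embryoid body clone 1 (0.0636 and 0.0628), and Fzd7, Fzd2, Lrp5 and Cdx1 ended without at least 3 of the 4 arrays (0.108, 0.211, 0.159 and 0.151). With normexp background the calls of Lgr5 (0.62, adjusted p = 0.161) and Cdx1 (-0.44, adjusted p = 0.104) ended.

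For Nodal and TGF-beta, 5 of 23 measured members rose and 3 fell (34.8% called against 13.4% of all genes, median 0.24). Lefty2, a secreted Nodal inhibitor and target, rose by 1.64 ± 0.37 (adjusted p = 0.0228), while the related Lefty1 changed by 0.08 ± 0.68, adjusted p = 0.952 and was not called. Fst, the activin antagonist follistatin, rose by 2.39 ± 0.59 (0.0319), and the ligand gene Tgfb1 by 1.38 ± 0.34 (0.0312). The other two, the inhibitory Smad7 (0.96 ± 0.26) and the common mediator Smad4 (0.69 ± 0.19), were chosen after their values were seen and did not hold without either embryoid body array. Inhbb, an activin subunit, and Tgfbi, a TGF-beta induced matrix protein, were among the 3 that fell. Inhbb fell by 2.65, but its 2 probes changed by -2.65 and -0.34, and Tgfbi fell by 2.14. Lefty2 and Fst ended without undifferentiated clone 2 or either embryoid body array, Tgfb1 without any 1 array, and Inhbb and Tgfbi without embryoid body clone 2 (adjusted p up to 0.141, 0.194, 0.16, 0.0694 and 0.059). With 1 array left out the change of Fst ran 1.64 to 3.15. Of 23 BMP pathway genes, 2 rose and 2 fell (17.4% called against 13.4% of all genes). The type 2 receptor gene Bmpr2 (0.99 ± 0.28) and the type 1 receptor gene Bmpr1a (0.71 ± 0.19) rose, and the inhibitory Smad6 (-2.44 ± 0.60) and the target Gata2 (-2.45 ± 0.60) fell. Each of these 4 calls ended without any 1 of the 4 arrays, and the probes of Bmpr2 and Bmpr1a differed in sign. The BMP targets Id1 (0.66 ± 0.36, adjusted p = 0.234) and Id3 (0.37 ± 0.38, adjusted p = 0.534) were not called.

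Genes of FGF and ERK signalling changed in both directions: 3 of 24 rose, 2 fell (20.8% called against 13.4% of all genes) and the median was -0.12. Among the ligands Fgf8 rose and Fgf17 fell by 1.63 ± 0.26 (adjusted p = 0.00875). The receptor gene Fgfr1 fell by 0.70 ± 0.19 on all 4 of its probes, a change smaller than 2-fold. The ERK feedback genes Dusp4, a MAP kinase phosphatase, and Il17rd, a receptor-level inhibitor also named Sef, rose by 1.61 ± 0.37 and 1.39 ± 0.24. Others in the same loop did not pass, such as Dusp6 (0.93 ± 0.33, adjusted p = 0.0888), Spry2 (1.23 ± 0.37, adjusted p = 0.0586) and Etv4 (0.55 ± 0.45, adjusted p = 0.435). Fgf17 and Il17rd ended without either embryoid body array (0.07 and 0.0828), and Fgfr1 and Dusp4 without any 1 array (0.173 and 0.152). The call of Fgfr1 also ended with normexp background (-0.52, adjusted p = 0.0589).

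Immediate early genes, which serum, growth factors and cell handling induce within minutes, gave more decreases than increases. Of 22, 4 fell and 1 rose (22.7% called against 13.4% of all genes, median -0.87). Fos, the AP-1 subunit, measured 0.58 and 1.96 in undifferentiated clones 1 and 2 and -2.85 and -3.27 in embryoid body clones 1 and 2. Undifferentiated clone 2 was the brighter of its group and both embryoid body arrays were far lower (log2 change -4.34 ± 0.57, adjusted p = 0.00507, -5.03 to -3.64 with 1 array left out). The other AP-1 members Fosb and Jun fell by 2.91 (-3.66 to -2.17 with 1 array left out) and 2.50, and the stress factor Atf3 by 2.67. Dusp2, an inducible phosphatase, rose by 1.41. Egr family members were not called, and Junb, Jund (-0.61 ± 0.21, adjusted p = 0.0819) and Nr4a1 (-0.48 ± 0.30, adjusted p = 0.307) did not pass. Undifferentiated clone 2 was brighter than clone 1 for 16 of the 22 members, by a median of 0.51. Only the call of Fos held with any array left out; Fosb ended without embryoid body clone 2 (0.0574), Jun without undifferentiated clone 2 or either embryoid body array (0.0801), and Atf3 and Dusp2 without any 1 array (0.188 and 0.15). The call of Atf3 also ended with normexp background (-2.03, adjusted p = 0.0538).

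Several genes of the rare state that resembles the 2-cell embryo fell in embryoid bodies. Of 28 listed genes, 15 were on the array and 10 passed the filter on dim probes. Of these 10 measured, 4 fell and none rose (40% called against 13.4% of all genes), with a median of -1.58. Zscan4c, a zinc finger protein of telomere maintenance, measured 0.62 and -0.39 in undifferentiated clones 1 and 2 and -3.84 and -3.71 in embryoid body clones 1 and 2. It was low on both embryoid body arrays (log2 change -3.89 ± 0.38, adjusted p = 0.00167). Usp17la, a deubiquitinase, measured -1.04 and -1.83 in undifferentiated clones 1 and 2 and -3.73 and -3.83 in embryoid body clones 1 and 2 and fell by 2.34 ± 0.27 (adjusted p = 0.00296). Tcstv1 fell by 2.82, and Tcstv3 was not well above background in embryoid bodies (at least 2.64-fold lower). These genes have near-identical copies, and a probe may take up RNA from several of them. The calls of Zscan4c and Usp17la held with any array left out, and those of Tcstv1 and Tcstv3 ended without either embryoid body array (0.0548 and 0.0752), that of Tcstv3 also with normexp background (-0.62, adjusted p = 0.0893). Stra8, a retinoic acid responsive gene of meiotic entry, was the only 1 of 25 germline genes to be called (4% against 13.4% of all genes). It measured 3.02 and 3.44 in undifferentiated clones 1 and 2 and -1.83 and -1.89 in embryoid body clones 1 and 2 and fell 34.1-fold (log2 change -5.09 ± 0.54, adjusted p = 0.00239), a call that held with any array left out. The germline list had a median of -0.03, and Tdrd12 (-0.19 ± 0.49, adjusted p = 0.817) and Tex19.1 (0.57 ± 0.43, adjusted p = 0.39) were among those not called.

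Of the chromatin and RNA-binding lists, 2 of 19 DNA methylation genes, 13.3% of polycomb genes and 5.56% of RNA-binding genes were called, against 13.4% of all genes. Of 19 DNA methylation genes outside the formative list, 2 fell: Tet1, a 5-methylcytosine dioxygenase of naive cells, by 1.15 (adjusted p = 0.0174), and Mbd2, a methyl-CpG binding protein, by 1.27 (0.0234). The 19 leave out Dnmt3b, which rose and is counted in the formative list, and Tet2, which fell and is counted in the naive list. Dnmt3l, the catalytically inactive cofactor, measured 4.67 and 4.31 in undifferentiated cells and 4.42 and 4.47 in embryoid bodies, and Uhrf1, the maintenance cofactor, changed by -0.14 ± 0.26. Of 30 polycomb genes, 2 fell (Ezh2, the H3K27 methyltransferase, by 0.83, and Scmh1 by 0.97) and 2 rose (Cbx6 and Ring1, by 0.88 and 0.85). Of 18 RNA-binding genes, 1 rose, Dgcr8 of the microRNA microprocessor (log2 change 1.56 ± 0.44, adjusted p = 0.0491), whose undifferentiated arrays were -1.18 and -2.81 and whose change ran 0.74 to 2.37 with 1 array left out. None of the calls in these 3 lists held with every array left out: all ended without either embryoid body array or without undifferentiated clone 2, and Scmh1 also without undifferentiated clone 1.

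The 15 largest increases among called genes ran from 3.62 to 5.80 on the log2 scale, and Fgf5 led them. Of these 15 genes, 4 were well above background on both undifferentiated arrays, 3 on 1 and 8 on neither. Undifferentiated clone 1 was brighter than clone 2 for 12 of the 15, and the share over all genes was not counted. Peptide hormone genes and receptors were among the 15. Cck, which encodes cholecystokinin, was well above background on 1 undifferentiated array and measured -5.93 and -4.64 in undifferentiated clones 1 and 2 and 0.83 and -0.39 in embryoid body clones 1 and 2 (log2 change 5.50 ± 0.73, adjusted p = 0.00507, 4.86 to 6.15 with 1 array left out). Penk, which encodes proenkephalin (probe at chr4:4060735-4060794), measured -0.66 and -0.51 in undifferentiated clones 1 and 2 and 3.67 and 2.67 in embryoid body clones 1 and 2. It was high on both embryoid body arrays and both of its probes rose, by 3.73 and 3.75 (log2 change 3.75 ± 0.42, adjusted p = 0.00277). Calcr, the calcitonin receptor gene, measured -3.03 and -2.57 in undifferentiated clones 1 and 2 and 1.42 and 0.55 in embryoid body clones 1 and 2, and its groups did not overlap (log2 change 3.78 ± 0.41, adjusted p = 0.00248). Tac4, a tachykinin precursor gene, was not well above background in undifferentiated cells and was at least 4.07-fold higher (4-fold and 4.14-fold with a single embryoid body array). Fabp7, a fatty acid binding protein of neural progenitors, measured -3.17 and -4.89 in undifferentiated clones 1 and 2 and 0.63 and -0.53 in embryoid body clones 1 and 2 (log2 change 4.08 ± 0.55, adjusted p = 0.00521, 3.22 to 4.93 with 1 array left out). Slc35d3, a member of the nucleotide sugar transporter family, rose by 4.27 ± 0.55 (3.56 to 4.99 with 1 array left out), from 1 undifferentiated array well above background. Cer1, a secreted inhibitor of Nodal, BMP and Wnt, measured -7.43 and -7.75 in undifferentiated clones 1 and 2 and -2.12 and -4.15 in embryoid body clones 1 and 2 and was at least 5.86-fold higher (2.9-fold and 11.8-fold with a single embryoid body array). Sema6a, a transmembrane semaphorin, Klhl4, Il7, Vstm2a and 1700093K21Rik were likewise below background in undifferentiated cells and were at least 6.99-fold, at least 4.35-fold, at least 3.31-fold, at least 3-fold and at least 9.03-fold higher. A single embryoid body array gave 4.78-fold and 10.2-fold for Sema6a and 2.48-fold and 7.64-fold for Klhl4, and the 2 probes of Sema6a changed by 0.71 and 3.99. Aadac, an arylacetamide deacetylase, rose by 3.69 ± 0.57 (2.86 to 4.52 with 1 array left out). The calls of 8 of the 15 held with any array left out, namely Fgf5, Cck, Cer1, Slc35d3, Fabp7, Calcr, Penk and Lgr5. The others ended without embryoid body clone 1, and for some without further arrays (adjusted p up to 0.173 for Vstm2a). With normexp background the calls of 6 of the 15 ended, namely Cer1 (0.97, adjusted p = 0.114), Lgr5 (0.62, adjusted p = 0.161), Klhl4 (0.69, adjusted p = 0.109), Il7 (0.43, adjusted p = 0.298), Vstm2a (0.32, adjusted p = 0.726) and Tac4 (0.69, adjusted p = 0.0577).

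The 15 largest decreases had fitted log2 changes between -8.24 and -4.89, and 12 of these calls held with any array left out. Of the 15, 3 were well above background on both embryoid body arrays, 2 on 1 and 10 on neither. Undifferentiated clone 1 was brighter than clone 2 for 14 of them, and also for 12 of the 15 largest increases. Msln, which encodes mesothelin of mesothelial cells (probe at chr17:25885569-25885628), measured 4.11 and 2.03 in undifferentiated clones 1 and 2 and -3.36 and -4.49 in embryoid body clones 1 and 2. It was dim but measured on both embryoid body arrays and fell by 6.99 ± 0.70 (adjusted p = 0.00181, -8.03 to -5.96 with 1 array left out). Cavin2, a coat protein of caveolae, measured 3.38 and 1.08 in undifferentiated clones 1 and 2 and -5.89 and -6.14 in embryoid body clones 1 and 2 and was at least 154-fold lower (69.5-fold and 341-fold with a single undifferentiated array). Vcam1, a vascular cell adhesion molecule, Aqp1, a water channel, and Prelp, a matrix proteoglycan, were below background in embryoid bodies and at least 23.5-fold, at least 9.99-fold and at least 8.61-fold lower. A single undifferentiated array gave 12.5-fold and 44-fold for Vcam1, 7.24-fold and 13.8-fold for Aqp1 and 4.33-fold and 17.1-fold for Prelp. Col8a1, a short-chain collagen, measured 1.69 and 0.32 in undifferentiated clones 1 and 2 and -3.49 and -4.27 in embryoid body clones 1 and 2 (log2 change -4.89 ± 0.45, adjusted p = 0.00141, -5.57 to -4.21 with 1 array left out), and both of its probes fell. Klra7, a natural killer receptor of a family with similar members, was at least 15.9-fold lower (7.63-fold and 33.3-fold with a single array), and Clec1b, a C-type lectin of platelets, at least 11.7-fold lower (adjusted p = 0.000332). Ifi202b, an interferon-inducible gene with related copies, fell by 5.96 ± 0.48 (adjusted p = 0.00107, -6.87 to -5.06 with 1 array left out), with 1 embryoid body array above background. Myo3b, an unconventional myosin, was at least 15.8-fold lower, though its 2 probes changed by -5.14 and -1.92. Serpina3g, a serine protease inhibitor, differed between the embryoid body arrays (-4.25 and -7.56), and its change ran -6.60 to -3.29. Calls that did not hold were Cavin2 (without either embryoid body array, 0.061), Myo3b (without embryoid body clone 1, 0.054) and Serpina3g (without either undifferentiated array or embryoid body clone 2, 0.134).

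Markers of other cell types were followed beside these decreases. Fibroblast markers, the cells used as feeders in many embryonic stem cell cultures, included 10 that fell of 26 measured (38.5% called against 13.4% of all genes, median -1.23). With the 2 groups fitted alone, 4 of the 26 were called lower. Their summed linear signal, in units of the array's 75th percentile, was 182 and 66 in undifferentiated clones 1 and 2 and 38.9 and 33 in embryoid body clones 1 and 2. Undifferentiated clone 1 was brighter than clone 2 for 22 of the 26, by a median of 0.97. S100a4, a calcium-binding protein of motile fibroblasts, measured 6.78 and 4.55 in undifferentiated clones 1 and 2 and 2.11 and 1.58 in embryoid body clones 1 and 2 (log2 change -3.82 ± 0.70, adjusted p = 0.0135, -4.94 to -2.71 with 1 array left out), and Col1a2, a type I collagen chain, measured 3.65 and 2.40 in undifferentiated clones 1 and 2 and 0.74 and 0.03 in embryoid body clones 1 and 2 (log2 change -2.65 ± 0.45, adjusted p = 0.0102, -3.27 to -2.02). Medag, an adipogenesis gene, was at least 17.3-fold lower and Ogn, a matrix proteoglycan, at least 3.21-fold lower (1.64-fold and 6.26-fold with a single undifferentiated array). Prrx1, a homeobox factor of limb and fibroblast mesenchyme, fell by 2.41 (-3.38 to -1.44), and Loxl1, a collagen crosslinking oxidase, by 2.15. Thy1, a surface marker of fibroblasts, measured 3.16 and 2.21 in undifferentiated cells and 1.92 and 2.36 in embryoid bodies and was not called, and neither were Mmp14 (0.64 ± 0.31, adjusted p = 0.183) and Cdh11 (-0.22 ± 0.31, adjusted p = 0.662). All 26 measured markers were above background on both undifferentiated arrays and 23 on both embryoid body arrays. Only Medag held with every array left out; the others ended without at least 1 embryoid body array (adjusted p up to 0.185 for Prrx1). The part of these cells in the other decreases was not tested.

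Some immune and endothelial markers fell and none rose, with 25% and 28.6% called lower against 5.39% of all genes. Of 18 listed immune markers 12 were measured. All measured markers of both lists were well above background on both undifferentiated arrays, but only 8 immune and 10 endothelial ones on both embryoid body arrays. A marker that passed the filter only through its undifferentiated level could only fall, and how many did so was not counted. Of 12 measured immune markers 3 fell, Klra7, Clec1b and Laptm5 (log2 change -1.41 ± 0.32, adjusted p = 0.0239), and their summed signal was 3.09 and 2.78 in undifferentiated cells against 1.45 and 1.47 in embryoid bodies. Cd68, Cd74, Fcer1g and Cd3e were not called. Of 14 endothelial markers 4 fell, with sums of 5.93 and 6.11 against 5.46 and 6.62. Emcn, an endothelial sialomucin, was at least 6.73-fold lower and Tie1, an endothelial receptor kinase, at least 1.97-fold lower, both with calls that held with any array left out, but that of Tie1 ended with normexp background (-0.51, adjusted p = 0.0678). Vwf, which encodes von Willebrand factor, and Cdh5, vascular cadherin, fell by 1.90 (-2.51 to -1.30 with 1 array left out) and 1.96, and both ended without undifferentiated clone 2 or either embryoid body array, Cdh5 also without undifferentiated clone 1 (0.103 and 0.162). Cldn5, Flt1, Eng and Plvap had changes between 0.07 and 1.44 and were not called.

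Contractile, YAP and SRF target genes, which respond to cell spreading and actin tension, included some of the largest decreases. Of 28 measured, 7 fell and 2 rose (32.1% called against 13.4% of all genes, median -0.71). Ankrd1, a nuclear ankyrin repeat protein and YAP target (probe at chr19:36186809-36186868), measured 0.55 and 0.02 in undifferentiated clones 1 and 2 and -6.97 and -7.43 in embryoid body clones 1 and 2. It was not well above background on either embryoid body array and was at least 40-fold lower (adjusted p = 0.00107). Tnnt2, cardiac troponin T, measured 0.14 and -1.24 in undifferentiated clones 1 and 2 and -6.97 and -6.32 in embryoid body clones 1 and 2 and was at least 22.4-fold lower (13.9-fold and 36.1-fold with a single undifferentiated array). Cav1, the caveola scaffold, measured 2.80 and 1.18 in undifferentiated clones 1 and 2 and -2.18 and -2.65 in embryoid body clones 1 and 2, with undifferentiated clone 1 the brighter and both of its probes lower (log2 change -4.40 ± 0.62, adjusted p = 0.00618, -5.21 to -3.59 with 1 array left out). Ccn1, the matricellular protein CYR61 and a YAP target, measured 1.26 and 2.31 in undifferentiated clones 1 and 2 and -0.58 and -0.61 in embryoid body clones 1 and 2. It fell 5.21-fold and its embryoid body arrays were nearly equal (log2 change -2.38 ± 0.35, adjusted p = 0.00693). Axl, a receptor kinase and YAP target, fell by 2.85 (-3.83 to -1.87 with 1 array left out), and Filip1l was at least 6.27-fold lower. The 2 that rose, Cnn1 (1.29 ± 0.28) and Zyx (1.18 ± 0.30), were chosen after their values were seen and did not hold without either embryoid body array. Cytoskeletal genes such as Actb (0.08 ± 0.26, adjusted p = 0.848), Flna (0.15 ± 0.20, adjusted p = 0.637) and Tagln (0.40 ± 0.26, adjusted p = 0.313) were not called. Acta2, smooth muscle actin, was not called on its brightest probe (0.09 ± 0.19, adjusted p = 0.791), and its 4 probes changed between -3.46 and 0.09. Ankrd1, Tnnt2 and Cav1 held with any array left out, with adjusted p up to 0.0498 for Cav1. Axl, Ccn1 and Filip1l ended without either embryoid body array (up to 0.1, 0.0518 and 0.107).

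The letters CATTCC, the core to which TEAD factors, the DNA-binding partners of YAP, attach, stand on either strand in a RefSeq promoter of 5 of the 7 lower members of that list (Ankrd1, Ccn1, Amotl2, Axl and Tnnt2) and in 14.7% of the 32851 promoters of the same length. A gene was counted if any of its promoters held the letters, whereas the 14.7% is a share of single promoters. Tnnt2 holds them in only 1 of its 2 promoters. The windows of the pair that fell most are shown with the matches in capitals, which read GGAATG where the match is on the other strand. Ankrd1 (chr19:36119795-36120094, GRCm38.p6, minus strand) has 2 matches, 210 and 123 bases before the start, and Tnnt2 (chr1:135836084-135836383, plus strand) has 1, 27 bases before it.
Ankrd1: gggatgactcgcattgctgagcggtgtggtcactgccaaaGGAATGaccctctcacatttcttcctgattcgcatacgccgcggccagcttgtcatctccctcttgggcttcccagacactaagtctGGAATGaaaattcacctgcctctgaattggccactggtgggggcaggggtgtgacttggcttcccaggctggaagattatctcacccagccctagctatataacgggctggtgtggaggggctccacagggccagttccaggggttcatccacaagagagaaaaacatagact
Tnnt2: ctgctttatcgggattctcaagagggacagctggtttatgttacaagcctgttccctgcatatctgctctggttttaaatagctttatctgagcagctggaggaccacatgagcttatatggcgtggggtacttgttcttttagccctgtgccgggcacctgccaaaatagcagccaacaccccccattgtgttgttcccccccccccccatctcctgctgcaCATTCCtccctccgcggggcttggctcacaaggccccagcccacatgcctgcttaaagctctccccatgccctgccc

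Adhesion and matrix genes fell where they were called, with a few epithelial exceptions. Calls made up 25% of basement membrane, 20.8% of epithelial, 25% of epithelial to mesenchymal transition and 19% of protease and inhibitor genes, against 13.4% of all genes. Of 24 basement membrane genes 6 fell and none rose (median -0.35): Lama1, the laminin alpha chain of the early embryo (-2.13 ± 0.34), the type IV collagen chains Col4a2 (-2.06 ± 0.41) and Col4a1 (-1.46 ± 0.34), the linker nidogen gene Nid1 (-2.01 ± 0.31), the laminin receptor gene Dag1 (-0.89 ± 0.20) and the proteoglycan gene Agrn (-0.63 ± 0.18). Nid1 measured 3.40 and 2.96 in undifferentiated clones 1 and 2 and 0.99 and 1.36 in embryoid body clones 1 and 2, with the groups well apart. Lamc1, Itga6, Itgb5 and Col18a1 were not called. Of 24 epithelial genes 3 fell, Msln, Upk3b (at least 1.59-fold lower) and the claudin gene Cldn4, and 2 rose, the membrane serine protease gene Prss8 (1.32 ± 0.30) and its inhibitor Spint2 (1.47 ± 0.20). Cldn4 measured -0.42 and 1.64 in undifferentiated clones 1 and 2 and -3.32 and -2.84 in embryoid body clones 1 and 2 (log2 change -3.69 ± 0.63, adjusted p = 0.0106, -4.72 to -2.66 with 1 array left out). Cdh1, which encodes E-cadherin, measured 4.03 and 4.02 in undifferentiated cells and 4.75 and 4.76 in embryoid bodies and did not pass (0.73 ± 0.25, adjusted p = 0.0809). Of 16 genes of the epithelial to mesenchymal transition 4 fell, among them the intermediate filament gene Vim (-1.67 ± 0.46), the hyaluronan receptor gene Cd44 (-3.57 ± 0.72) and Tgfb3 (-2.87 ± 0.45). Undifferentiated clone 1 was brighter than clone 2 for 15 of these 16, and Cd44 and Tgfb3 ran -4.75 to -2.39 and -3.57 to -2.17 with 1 array left out. Of 21 protease and inhibitor genes 4 fell: Timp2, a metalloprotease inhibitor (-3.43 ± 0.47, -4.26 to -2.60), Adamts1 (-1.82 ± 0.25), the plasminogen activator gene Plat (-1.77 ± 0.48) and Mmp11 (-1.40 ± 0.30). Calls that held with any array left out were Msln, Timp2 and Adamts1. The remaining calls of these 4 lists were lost without at least 1 embryoid body array, with adjusted p up to 0.223 for Plat and 0.196 for Agrn, and that of Upk3b also with normexp background (-0.39, adjusted p = 0.137).

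**Figure D3:**
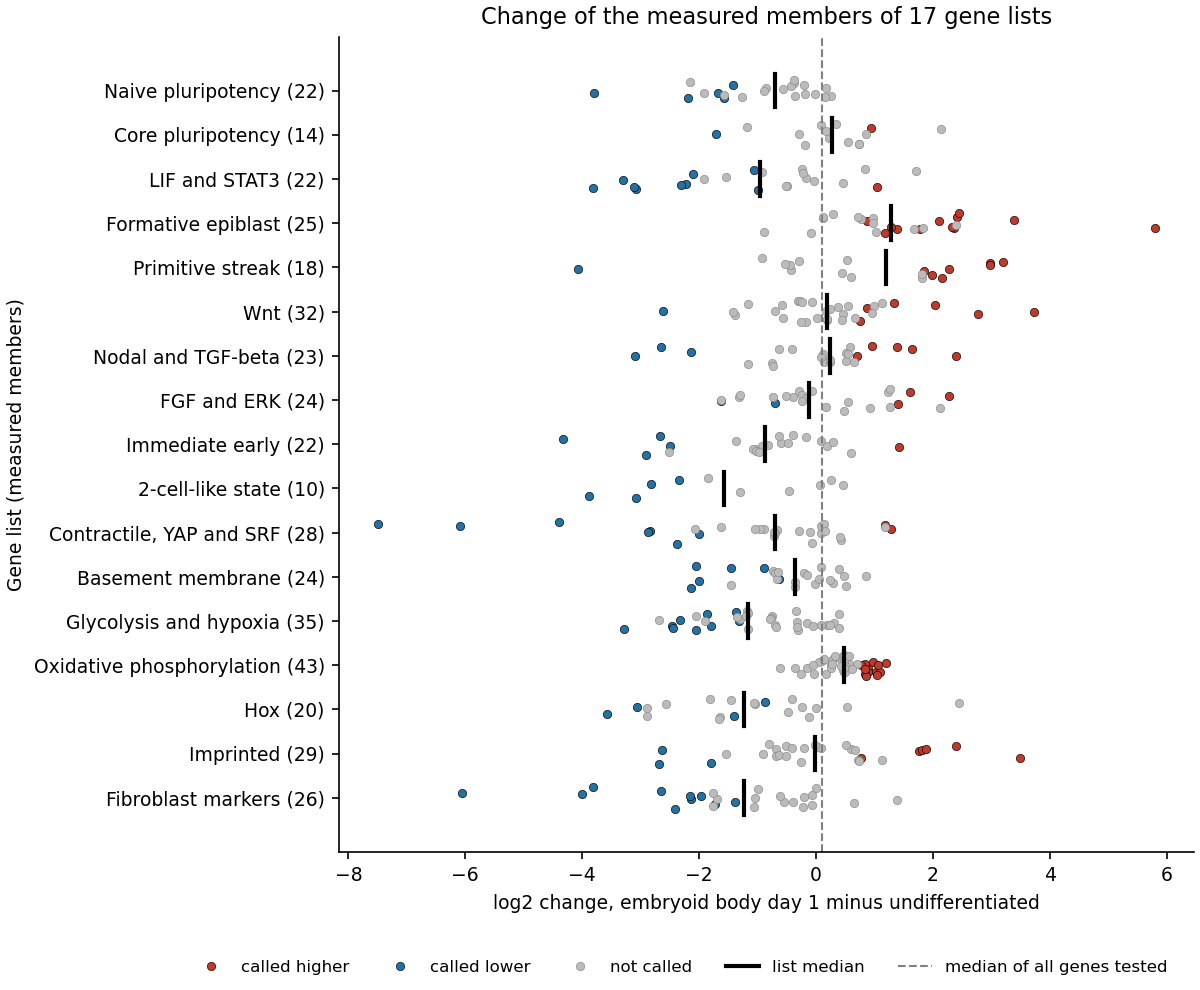
Log2 change of each measured member of 17 gene lists, embryoid body day 1 minus undifferentiated, with red for called higher, blue for called lower, grey for not called, a black bar for the list median and a dashed line for the median of all genes (0.09). The formative epiblast median stands at 1.29 and that of LIF and STAT3 at -0.96, while the longest tail to the left belongs to the contractile list.

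Some glycolysis and hypoxia response genes fell in embryoid bodies, and the 2 undifferentiated arrays differed within the list. Of 35 measured, 9 fell and none rose (25.7% called against 13.4% of all genes), with a median of -1.16. With the 2 groups fitted alone, 3 were called lower. Vegfa, the angiogenic growth factor that hypoxia induces, measured 0.13 and 1.41 in undifferentiated clones 1 and 2 and -2.90 and -2.13 in embryoid body clones 1 and 2 and fell on all 4 of its probes (log2 change -3.28 ± 0.62, adjusted p = 0.0145). P4ha1, a collagen prolyl hydroxylase, measured 1.03 and 2.29 in undifferentiated clones 1 and 2 and -0.81 and -0.77 in embryoid body clones 1 and 2, and Slc2a3, the glucose transporter GLUT3, measured 5.97 and 7.04 in undifferentiated clones 1 and 2 and 4.27 and 4.10 in embryoid body clones 1 and 2. Both fell with no overlap of the groups (log2 change -2.45 ± 0.52, adjusted p = 0.0202 and -2.32 ± 0.45, 0.0159). The neuronal enolase gene Eno2, the stress gene Ndrg1 and the carbonic anhydrase gene Car12 fell by 2.46, 2.05 and 1.86. Pfkp, a phosphofructokinase gene chosen after its values were seen, was also called lower. Several other enzymes of the glycolytic chain were not called, such as Aldoa (-0.76 ± 0.33, adjusted p = 0.15), Ldha (-0.16 ± 0.35, adjusted p = 0.788), Gapdh (0.09 ± 0.27, adjusted p = 0.843) and Pgam1 (-0.33 ± 0.27, adjusted p = 0.433). Undifferentiated clone 2 was brighter than clone 1 for 34 of the 35 members, by a median of 0.77, and the summed signal was 1747 and 2590 there against 1503 and 1461 in embryoid bodies. No call in the list held with every array left out. Without undifferentiated clone 2 none of the 35 was called, without undifferentiated clone 1 there were 13, and without either embryoid body array none. The change of Vegfa ran -3.92 to -2.64, of P4ha1 -3.08 to -1.82, of Eno2 -3.10 to -1.81, of Ndrg1 -2.69 to -1.41 and of Car12 -2.64 to -1.09 with 1 array left out. The part of the difference between undifferentiated arrays in this result was not tested.

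The letters ACGTG, the core of the hypoxia response element, occur on either strand in a promoter of 4 of the 7 lower members for which a promoter was at hand (Vegfa, Egln1, P4ha1 and P4ha2) and in 19.6% of all 32851. A gene was again counted if any of its promoters matched, whereas the 19.6% is a share of single promoters. Vegfa holds the match in only 1 of its 2 promoters. P4ha1 (chr10:59323046-59323345, plus strand) has it 16 bases before the start, read as CACGT on the printed strand, and Egln1 (chr8:124949205-124949504, minus strand), the oxygen-sensing prolyl hydroxylase gene, which was chosen after its values were seen and fell by 1.79, has it 68 bases before. Both windows are shown as the sequences of lower members that carry the match.
P4ha1: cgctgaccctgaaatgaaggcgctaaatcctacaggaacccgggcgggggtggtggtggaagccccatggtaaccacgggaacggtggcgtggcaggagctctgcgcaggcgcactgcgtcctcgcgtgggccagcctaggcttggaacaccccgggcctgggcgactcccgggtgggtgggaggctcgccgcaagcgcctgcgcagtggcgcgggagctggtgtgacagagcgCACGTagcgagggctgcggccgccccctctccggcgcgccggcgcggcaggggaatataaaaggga
Egln1: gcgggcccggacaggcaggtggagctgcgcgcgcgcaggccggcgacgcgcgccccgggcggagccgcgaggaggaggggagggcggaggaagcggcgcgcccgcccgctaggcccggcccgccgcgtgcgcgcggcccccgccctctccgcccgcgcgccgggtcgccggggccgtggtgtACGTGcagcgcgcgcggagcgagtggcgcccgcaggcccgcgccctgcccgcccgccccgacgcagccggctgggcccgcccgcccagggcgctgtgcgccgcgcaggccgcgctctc

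**Figure D4:**
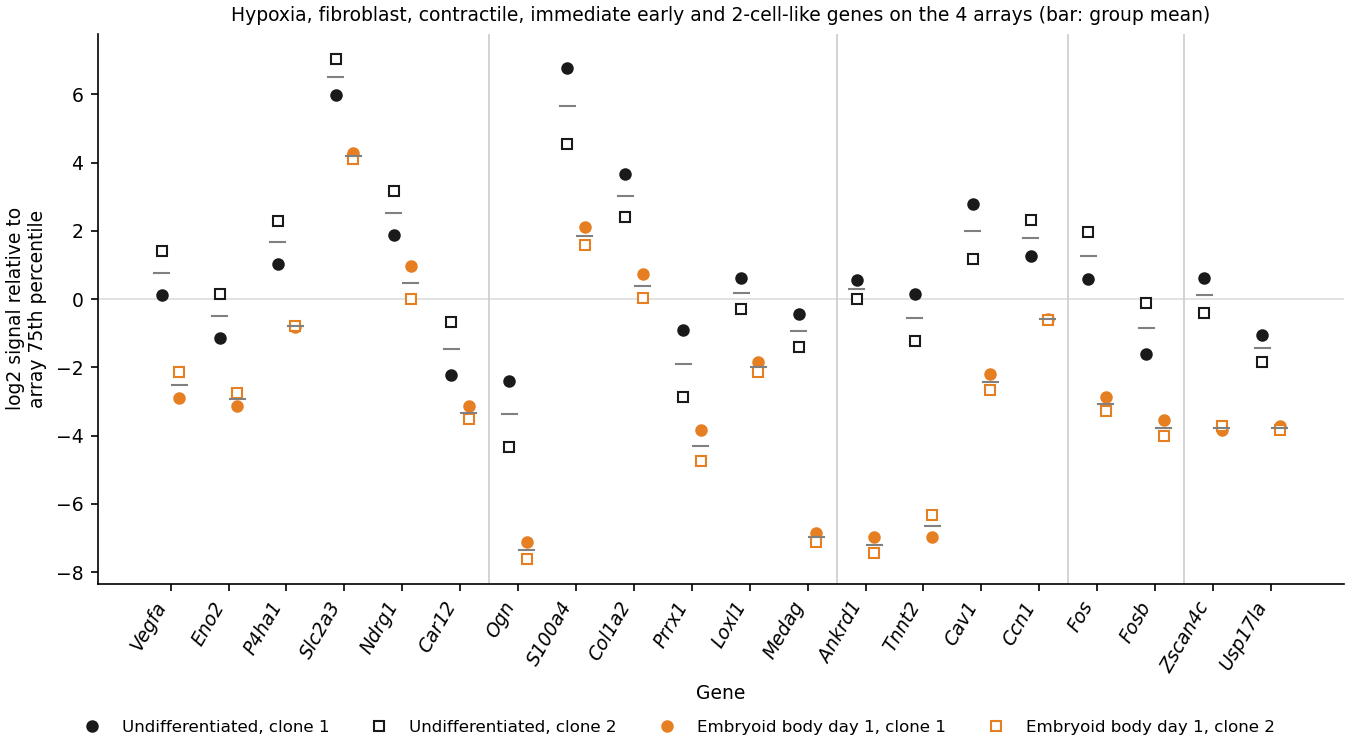
Log2 signal relative to the array's 75th percentile on the 4 arrays (black undifferentiated, orange embryoid body day 1, circles clone 1, squares clone 2, bars group means), with thin lines between hypoxia, fibroblast, contractile, immediate early and 2-cell-like genes. Undifferentiated clone 2 is the higher of its pair for the 6 hypoxia genes and clone 1 for the 6 fibroblast genes. Both embryoid body arrays lie below both undifferentiated arrays for all 20 genes, which were drawn from those called lower. Over all genes, 64.8% have the 2 groups apart in this way in either direction.

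Respiratory chain genes rose by small amounts where they were called. Of 43 measured, 13 rose and none fell (30.2% called against 13.4% of all genes). The median was 0.47, and 37 had a change above 0. Changes of the called members ran from 0.77 to 1.20. Ndufa4, a subunit of the terminal oxidase, measured 4.73 and 4.54 in undifferentiated clones 1 and 2 and 5.88 and 5.78 in embryoid body clones 1 and 2 and rose 2.29-fold (log2 change 1.20 ± 0.21, adjusted p = 0.0117). Cox7a2, also of the terminal oxidase, rose 2.13-fold, Ndufab1, the acyl carrier protein of complex I, 2.08-fold, Cycs, which encodes cytochrome c, 2.06-fold, and Atp5g1, an ATP synthase subunit c gene, 2.03-fold. The ATP synthase alpha and beta subunit genes Atp5a1 (-0.15 ± 0.24, adjusted p = 0.697) and Atp5b (-0.04 ± 0.19, adjusted p = 0.897) were not called. Changes of these genes were lower with quantile normalization. Ndufa4 (0.83) and Ndufab1 (0.72) kept their calls there. Cox7a2 (0.72, adjusted p = 0.0698), Cycs (0.67, 0.0584) and Atp5g1 (0.68, 0.0639) lost theirs, and Atp5a1 and Atp5b stood at -0.43 and -0.27. Embryoid body clone 1 was brighter than clone 2 for 41 of the 43. No call of the list held with every array left out, and none was called when the 2 groups were fitted alone. Of 33 sterol and fatty acid synthesis genes 3 rose (9.09% called against 13.4% of all genes, median 0.60). Among them were Fasn, the fatty acid synthase gene, which measured 6.50 and 5.81 in undifferentiated clones 1 and 2 and 7.93 and 7.82 in embryoid body clones 1 and 2 (log2 change 1.72 ± 0.32, adjusted p = 0.0142), and Mvk, mevalonate kinase (1.15 ± 0.31). Fasn ended without undifferentiated clone 2 or either embryoid body array (0.0934), and Mvk without any 1 array (0.219).

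Imprinted genes moved in both directions. Of 29 measured, 6 rose and 3 fell (31% called against 13.4% of all genes, median -0.03). Rian, a maternally expressed long noncoding RNA gene of the Dlk1 and Dio3 cluster, measured -0.12 and -0.12 in undifferentiated clones 1 and 2 and 2.34 and 2.21 in embryoid body clones 1 and 2. Each pair was nearly equal, and it rose 5.26-fold (log2 change 2.40 ± 0.20, adjusted p = 0.00107). Dlk1, the paternally expressed protein-coding gene of the same cluster, measured 3.12 and 2.22 in undifferentiated clones 1 and 2 and 0.06 and -0.09 in embryoid body clones 1 and 2 and fell 6.44-fold (log2 change -2.69 ± 0.39, adjusted p = 0.0068). Magel2 and Snrpn, paternally expressed genes of the Prader-Willi region, rose by 3.48 ± 0.49 (0.00626, 2.87 to 4.09 with 1 array left out) and 1.88 ± 0.40 (0.0196), and Nnat by 1.81 ± 0.44 (0.0298). Igf2, a fetal growth factor gene, fell by 2.63 ± 0.70 (adjusted p = 0.0391). H19 (-1.80 ± 0.45), Kcnq1ot1 (1.75 ± 0.49, 1.14 to 2.37 with 1 array left out) and Ube3a (0.77 ± 0.17) were also called and were chosen after their values were seen, and none of the 3 held with every array left out. Mest, Grb10, Phlda2 and Impact were not called. Rian held with any array left out; Magel2 ended without embryoid body clone 1 (0.0548), Dlk1 without either embryoid body array (0.0511), Snrpn without undifferentiated clone 2 or either embryoid body array (0.13), and Igf2 and Nnat without any 1 array (0.177 and 0.184).

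Calls among patterning genes made up 20% of Hox, 15% of retinoic acid, 10% of Notch and 22.6% of axon guidance genes, against 13.4% of all genes. Of 20 Hox genes 4 fell and none rose (median -1.23). Hoxa5 was at least 1.81-fold lower, and no bound above 1 could be given with the dimmer undifferentiated array alone, and Hoxa7 and Hoxb6 fell by 1.40 (-2.07 to -0.74 with 1 array left out) and 0.87. Undifferentiated clone 1 was brighter than clone 2 for 17 of the 20. Of 20 retinoic acid pathway genes 2 fell, the receptor gene and direct target Rarb (at least 2.8-fold lower) and the homeobox gene Meis1 (at least 2.87-fold lower, 1.93-fold and 4.26-fold with a single undifferentiated array), and 1 rose, the receptor gene Rxra (1.16 ± 0.30), whose 2 probes changed by -0.77 and 1.16. Of 20 Notch genes 2 fell, the target Hes1 (log2 change -1.93 ± 0.31, adjusted p = 0.00924) and the ligand gene Dll4 (at least 1.49-fold lower). Of 31 axon guidance genes 5 rose and 2 fell. Beside Sema6a, the receptor genes Epha1 (1.68 ± 0.46), Plxnb1 (1.46 ± 0.25) and Robo1 (1.02 ± 0.27) and, chosen after its value was seen, Unc5b (0.79 ± 0.19) rose, and Plxnd1 fell by 1.47 and Sema3a was at least 2.09-fold lower (1.02-fold and 4.28-fold with a single undifferentiated array). No call named here held with every array left out: Meis1, Plxnd1 and Sema6a each ended in a single leave-one-out fit, that without embryoid body clone 1, and the others without 2 or more of the arrays (adjusted p up to 0.227 for Epha1). With normexp background the calls of Rarb (-0.68, adjusted p = 0.127), Meis1 (-0.62, adjusted p = 0.0896), Hoxa5 (-0.64, adjusted p = 0.101), Hoxb6 (-0.53, adjusted p = 0.0671), Dll4 (-0.15, adjusted p = 0.622) and Sema3a (-0.67, adjusted p = 0.129) ended too.

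Among genes of other lineages, 13% of endoderm, 16.7% of trophoblast and 23.5% of neural genes were called, against 13.4% of all genes. Of 23 measured endoderm genes, 2 rose, Cer1 and the retinol transporter gene Stra6 (1.26 ± 0.28), and 1 fell, the proteoglycan gene Srgn (-2.54 ± 0.60, -3.45 to -1.62 with 1 array left out). Sox17 measured -2.35 and -2.30 in undifferentiated cells and -2.19 and -2.80 in embryoid bodies (-0.17 ± 0.52, adjusted p = 0.849). Of 12 trophoblast genes 2 fell, Tfap2c, an AP-2 factor also used in naive cells (-1.85 ± 0.45), and Gata3 (at least 5.73-fold lower). Of 17 neural genes 4 rose: Cck and Fabp7, described above, Gli3, a Hedgehog effector (1.31 ± 0.36), and Zic1, a zinc finger factor that was above background on 1 embryoid body array only (at least 2.34-fold higher). Sox1, the early neural marker, measured -3.91 and -4.16 in undifferentiated cells and -3.66 and -3.93 in embryoid bodies and was not called (0.24 ± 0.24, adjusted p = 0.517), and Nes (0.91 ± 0.38, adjusted p = 0.138) and Tubb3 (-0.09 ± 0.27, adjusted p = 0.848) did not pass. Zic1 ended without embryoid body clone 2 (0.059), Gli3 without undifferentiated clone 2 or either embryoid body array (0.219), Srgn without either undifferentiated array or embryoid body clone 1, and Stra6, Tfap2c and Gata3 without any 1 array. With normexp background the calls of Cer1 (0.97, adjusted p = 0.114), Zic1 (0.16, adjusted p = 0.547) and Gata3 (-1.02, adjusted p = 0.25) ended.

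Among growth, stress and interferon genes, 9.76% of cell cycle, 12.5% of p53 target, 6.45% of amino acid stress, 4.55% of oxidative, heat and metal and 20% of interferon and MHC genes were called, against 13.4% of all genes. Of 41 cell cycle genes 2 rose (Mycl, 1.60 ± 0.37, and the thymidylate synthase gene Tyms, 0.96 ± 0.23, 0.66 to 1.25 with 1 array left out) and 2 fell (the inhibitor gene Cdkn2c, -1.55 ± 0.23, and Cdk2, -0.80 ± 0.21, whose 2 probes changed by -0.80 and 1.80). Of 24 p53 targets 3 fell: the death receptor gene Fas, which measured -1.91 and -2.23 in undifferentiated clones 1 and 2 and -3.73 and -4.14 in embryoid body clones 1 and 2 (log2 change -1.86 ± 0.25, adjusted p = 0.00507), and the DNA repair genes Ddb2 (-1.56 ± 0.36) and Xpc (-1.13 ± 0.26). Of 31 genes of the amino acid stress response Slc38a2, an amino acid transporter gene, rose (1.22 ± 0.25) and the lipoprotein receptor gene Vldlr fell (-2.86 ± 0.73). Ddit4, an mTOR inhibitor, measured 5.60 and 7.61 on the undifferentiated arrays and was not called. Of 22 oxidative, heat and metal response genes the small chaperone gene Hspb8 fell (-2.56 ± 0.58) and none rose. Of 25 interferon and MHC genes 3 rose, the peptide loading gene Tapbp (1.00 ± 0.28), Psmb8 of the immunoproteasome (1.76 ± 0.44, 1.09 to 2.44 with 1 array left out) and Irf1 (1.25 ± 0.30), and 2 fell, the inflammatory caspase gene Casp4 (at least 18.2-fold lower, 11.4-fold and 29.2-fold with a single undifferentiated array) and Ifit3 (at least 1.86-fold lower). Of 4 measured Y-linked genes Uty rose (log2 change 1.86 ± 0.25, adjusted p = 0.00527), and Ddx3y (1.17 ± 0.41, adjusted p = 0.0877), Eif2s3y (0.43 ± 0.17, adjusted p = 0.12) and Zfy1 (-0.60 ± 0.21, adjusted p = 0.0848) were not called. Calls that held with any array left out were Fas and Casp4. Uty and Cdkn2c ended without embryoid body clone 1 (0.0508 and 0.0656), and the others without 2 or more of the arrays. With normexp background the calls of Vldlr (-2.20, adjusted p = 0.0506), Ifit3 (-0.45, adjusted p = 0.142), Tapbp (0.85, adjusted p = 0.0679) and Uty (0.54, adjusted p = 0.0559) ended too.

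Levels in the later embryoid bodies of the series place the day 1 values, and are given as means ± SD over 2 arrays with no test. Fgf5 stood at -2.04 ± 1.35 in undifferentiated cells, 3.76 ± 0.42 at day 1, 4.72 ± 0.55 at day 3 and 2.75 ± 0.40 at day 4. Otx2 stood at 2.46 ± 0.17, 2.49 ± 0.29 and 0.64 ± 0.34 at days 1, 3 and 4, and Klf4 at 1.97 ± 0.27, 1.83 ± 0.03 and 2.64 ± 0.27, against 5.76 ± 0.16 in undifferentiated cells. Nanog stood at 3.23 ± 0.13 in undifferentiated cells, 1.66 ± 0.41 at day 1 and 1.78 ± 0.54 at day 3, and was lower, at -0.42 ± 0.21, at day 4. Eomes stood at 0.31 ± 0.78 at day 1 and 3.23 ± 0.05 at day 3, and Rian at 2.27 ± 0.09, 2.43 ± 0.15 and 2.36 ± 0.08. The day 3 arrays share slide and scan day with the day 1 arrays, whereas the day 4 arrays lie on another slide read on another scanner.

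**Figure D5:**
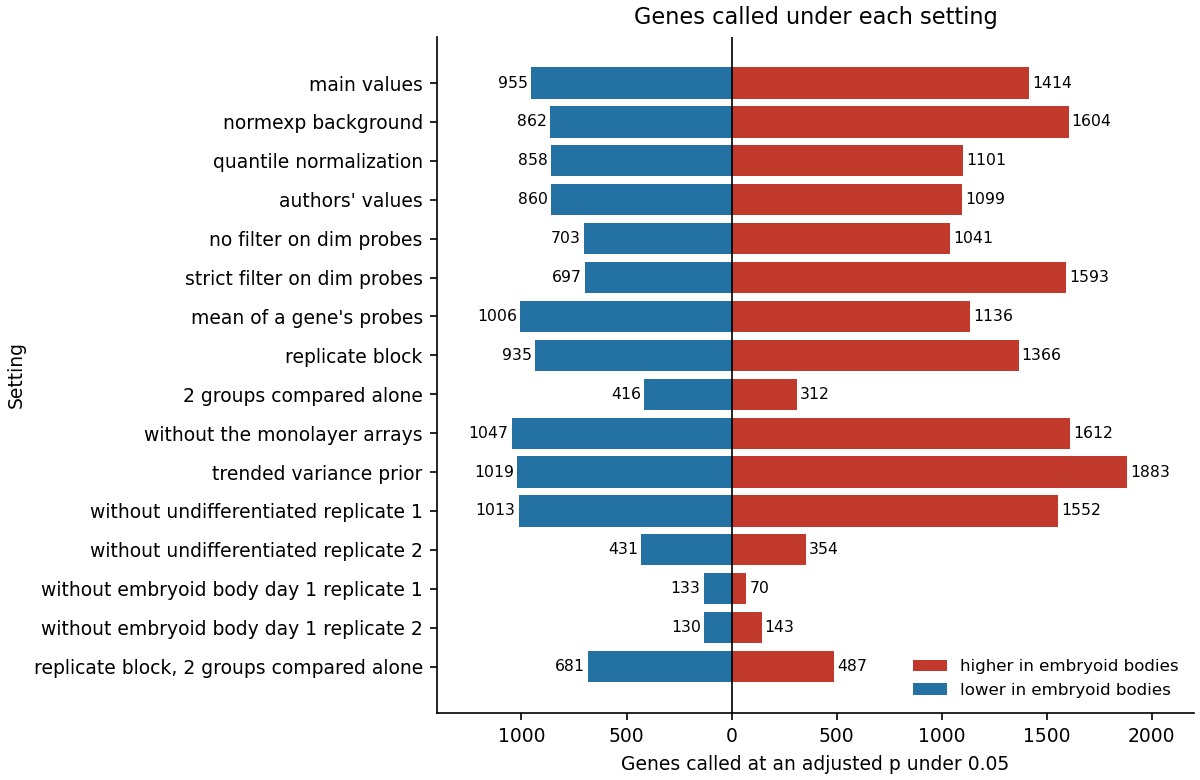
Number of genes called at an adjusted p under 0.05 under each setting, higher in embryoid bodies to the right in red and lower to the left in blue. The main values gave 1414 and 955, and the fewest calls, 70 higher and 133 lower, came from leaving out embryoid body clone 1.

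The number of calls depended on the arrays in the fit. With the 2 groups fitted alone, 728 genes were called (312 higher and 416 lower), of which 643 were among the 2369. Of 345 named genes measured, 75 lost their call in that fit and 2 gained one. Leaving out undifferentiated clone 1 gave 2565 calls and leaving out clone 2 gave 785, while leaving out embryoid body clone 1 or clone 2 gave 203 and 273. Of the 2369 calls, 103 were called the same way in every alternative that held the gene, 41 higher and 62 lower. They include Fgf5, Otx2, Klf4, Socs3, Bcl3, Zic2, Penk and Rian. Of the named genes whose call held with any array left out, Cer1, Lgr5 and Tie1 lost it in another setting, normexp background. Quantile normalization and the authors' values both ended the calls of Dnmt3b, Rif1, Atf3, Bmpr2, Bmpr1a, Scmh1, Cbx6, Gata3, Gli3, Prrx1, Cdh5, Eno2, Car12, Cox7a2, Cycs, Atp5g1, Tyms, Cdk2, Slc38a2, Mvk, Dgcr8, Irf1, Tapbp, Hoxa7, Hoxb6, Dll4, Epha1 and Plat. Without a filter on dim probes the calls of Dnmt3b, Vstm2a, Tet2, Fbxo15, Rif1, Fgfr1, Atf3, Dusp2, Fst, Tgfb1, Smad6, Bmpr2, Bmpr1a, Cdx1, Scmh1, Gata3, Gli3, Prrx1, Cdh5, Vim, Agrn, Eno2, Ndrg1, Car12, Cdk2, Vldlr, Mvk, Igf2, Dgcr8, Psmb8, Tapbp, Hoxa7, Hoxb6, Rxra, Dll4, Sema3a, Epha1, Robo1 and Plat ended, and with the mean of a gene's probes those of Vstm2a, Jam2, Rif1, Dusp4, Fgfr1, Bmpr2, Bmpr1a, Scmh1, Cbx6, Ring1, Laptm5, Eno2, Cdk2, Mvk, Dgcr8, Tapbp, Hoxb6 and Rxra. The replicate block ended those of Rif1, Fgfr1, Bmpr2, Bmpr1a, Scmh1, Vim, Agrn, Eno2, Ndrg1, Car12, Cdk2, Mvk, Hoxa7, Epha1 and Plat, the fit without monolayer arrays those of Fbxo15, Rif1, Fst, Prrx1, Agrn, Igf2, Dgcr8, Psmb8, Irf1, Hoxa7 and Plat and the trended prior that of Cdk2. Some genes named above as not called were called in an alternative. Normexp background added Pou5f1, Spry2, Tcf7l1 and Cdh1, among others. Quantile normalization and the authors' values both added Pou5f1, Jund and Cd74, among others. Of 796 called genes with more than 1 probe, 187 had probes whose changes differed in sign.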

How the data were processed

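Total RNA was labelled with Cy3 and hybridised by the submitters to 1 array per sample, per the labels' protocols. The deposited scanner files hold spot intensity, already processed for background by Agilent Feature Extraction per the file headers, and per-spot flags, which are another kind of value per the file headers. Version 9.5.1.1 stands in the submitters' processing notes, but the file headers carry 10.5.1.1 for undifferentiated cells and 10.7.3.1 for embryoid body day 1. The authors' deposited values are intensity with equal quantiles on every array (median 36.6, 75th percentile 488) and served as an alternative only.

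Each array's processed signals were put on the log2 scale and its 75th percentile, taken over the 43379 spots that are not controls, was subtracted. Outlier spots by the non-uniformity and population flags were dropped (61 to 118 on the arrays compared), and no spot was saturated. Averaging spots gave 41174 probes, and 32 had no usable spot on some array. Genes were named through RefSeq accessions (24844 probes), symbols or synonyms (7855), or by the file's name (8475). A gene was represented by its brightest probe among those well above background on both arrays of at least 1 group. Limma 3.58.1 in R 4.3.3 (data.table, version 1.17.8) fitted 6 group means to 12 arrays, two-sided. Where a group was not well above background, the fold is a bound against the higher of the array's lowest signal well above background and the probe's own. Signal over background and 2 arrays a group limit the precision.

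The comparison, the 40 gene lists and the rule for named genes were chosen with earlier results of these data known. The rule takes a panel of 25 genes, the 15 largest increases and 15 largest decreases among called genes with a symbol whose arrays separate, and per list up to 6 called members and up to 4 others with the highest level. Clone differences in the 2 groups correlated at 0.0871 across genes, so clone numbers were not used as pairs. Alternatives changed the background (normexp, offset 50), the normalization (quantile, or the authors' values), the filter on dim probes (none or strict), the summary of probes (their mean), the prior (trended) and the arrays fitted (the 2 groups alone, no monolayer arrays, each array left out), or added a replicate block or a 2-fold minimum. The block with the 2 groups alone was chosen after seeing the data. Limma was tested on simulated data. Prdm14, of the panel, was not analysed here. Some genes that the rule takes are not reported here. Figures used matplotlib 3.10.9 (Python 3.11.15).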

Additional observations from a re-analysis of the deposited data

Results flagged for a closer look

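The E1A spike-in probes lie outside the gene comparison and carry added control RNA. On unscaled log2 signals they averaged 1.44 higher in embryoid body day 1 than in undifferentiated cells, with a higher group mean for 10 of 10 probes and both embryoid body arrays above both undifferentiated arrays for 9. The array means were 8.67 and 8.94 in undifferentiated clones 1 and 2 and 10.2 and 10.3 in embryoid body clones 1 and 2, and the difference was 1.29 after scaling to the 75th percentile. The spike-ins were not used to scale any value, and the difference cannot be told apart from slide, scan day and software version.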

How the results depend on the processing

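Counts stayed within 1.5 times the 2369 calls under normexp background, quantile normalization, the authors' values, both filters, the mean of a gene's probes, the fit without monolayer arrays, the trended prior and the 2-fold minimum (1744 to 2902). The replicate block gave 2301 calls (1366 higher, 935 lower), and the labels do not say whether the clone numbers pair the samples. The 2 groups alone gave 728 calls (312 higher, 416 lower), and alone with the replicate block 1168 (487 higher, 681 lower). With 1 array left out, calls ran from 203 to 2565, higher calls from 70 to 1552 and lower calls from 130 to 1013; the array that remains alone is then assumed to vary like the other groups. The share of higher among calls was 59.7% in the main values, 42.9% with the 2 groups alone, 41.7% alone with the block, 45.1% without undifferentiated clone 2 and 34.5% without embryoid body clone 1. Of 345 named genes measured, 179 were called and 34 of these kept their call in every alternative that held them. With the mean of a gene's probes the sign turned for Bmpr2 (-0.0187), Cdk2 (0.50) and Acta2 (-1.71, adjusted p = 0.0327), which follows from probes that differ. The median change of all genes moved from 0.09 to 0.27 with no filter on dim probes. The cause of the other shifts was not tested. Limits are 2 arrays a group, a slide and scan day that coincide with group, and dim probes that give bounds only.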
